A study of Helianthus annuus with 9 samples.

Results

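Seeds of the sunflower (Helianthus annuus) line L-1-OL-1 at day 37 were set against seeds of the same line at day 22, in tables of mRNA, long non-coding RNA (lncRNA) and circular RNA (circRNA). The comparison centred on annotated genes, those listed under a numeric gene ID, with at least 5 FPKM (fragments mapped to a gene, divided by its length and by the size of the library) in at least 3 of the 6 libraries of these days. Of 52513 annotated mRNA-table genes, 7599 met this rule, as did 206 of 7573 in the lncRNA table. Of the 3482 circRNAs listed, the 271 with a value above 0 in at least 3 of the 6 libraries were compared.

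There were 3 libraries of day 37 and 3 of day 22, and a further 3 of day 7. The seeds of all 9 libraries came from field-grown plants of this high-oleic line, with no treatment. What the days were counted from is not stated in the labels. Nothing there says that the libraries were made from different plants either, so the spread behind each p-value may be technical. Total RNA had been depleted of ribosomal RNA before sequencing. Libraries are numbered 1 to 3 within each day, and values below are given in that order.

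An oilseed first builds its embryo by cell division, then fills it with storage oil and storage proteins, and then dries and comes to rest. Transcripts of growing tissue are known to decline during filling and drying, while transcripts for oil body proteins, storage proteins and proteins that protect dry cells accumulate. A high-oleic sunflower carries an altered oleate desaturation step, so that its oil is rich in oleic acid. Long non-coding RNAs are transcripts without a long reading frame, and circRNAs are closed loops formed when the end of an exon is joined back to an upstream exon start. The sources used here pair no gene ID with a product name or a sequence, so genes are given by ID alone, no role is given for any of them, and seed markers could not be checked. Reads from near-identical gene copies could not be checked for either.

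The libraries of a day did not hold equal amounts of these genes. The summed FPKM of the 7599 genes was 174212, 135464 and 46060 in the day 37 libraries, against 230363, 181989 and 125458 in the day 22 libraries, which was 30.7 to 62.8% and 54.9 to 69.5% of the table. Replicate 3 held the smallest sum on both days. On day 37 replicate 3 lay below both other libraries for 6795 of the 7599 genes, and on day 22 for 6899. Loci that the authors' assembly had added moved the other way: they took 22.1, 27.3 and 48.1% of the summed FPKM on day 37, against 14.9, 20.2 and 27.4% on day 22. Their part in the results was not tested, so results follow with and without the pair numbered 3, and with the libraries scaled on the 7599 genes alone (median of ratios, added after the sums had been seen). The number of reads per library is unknown. In whole seeds, fewer cells of a kind and less RNA per cell cannot be told apart.

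**Figure D1:**
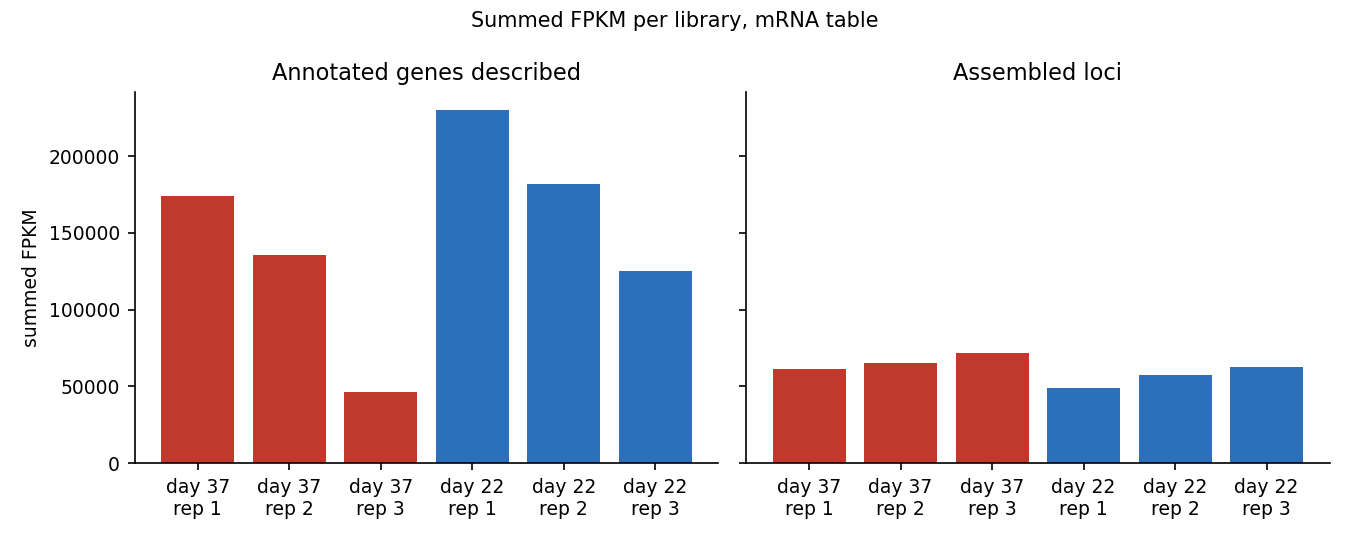
Summed FPKM per library (y axis) of the 7599 annotated genes (left panel) and of the assembled loci (right panel) in the mRNA table, for the 3 day 37 libraries (red) and the 3 day 22 libraries (blue). The annotated sum of day 37 replicate 3 was 46060 and all other libraries were at 125458 or above, while assembled loci summed to 49290 to 72036 in all 6.

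More of the 7599 genes fell than rose at day 37. At a limma adjusted p under 0.05 and a log2 fold change of at least 1 in either direction, 219 genes rose and 3296 fell, with the replicate number as a block. That was 2.88% and 43.4% of the genes, beside 1.3% risen and 20.9% fallen among all 31905 features tested. The remaining 4084 did not pass. The median log2 change was −0.78 for the 7599 genes and 0.11 for all features tested. Changes are on the log2(FPKM + 1) scale, which understates those of low genes. The membership rule itself bears on these counts: 1786 genes entered with no day 37 library at 5 FPKM and 45 with no day 22 library at 5 FPKM, while 1429 reached it in all 6. At the threshold, the third highest value was 5 for the lowest gene inside and 4.99 for the highest outside, with 1108 genes at 5 to under 6 and 1558 annotated genes at 4 to under 5.

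Without the pair numbered 3, 486 genes rose and 2746 fell, against 2.91% risen and 18.7% fallen of all features. Of the 219 risen genes 217 were also called risen there, and all 2746 fallen genes had been called fallen with the pair. Another 269 genes were called risen without the pair and not with it. The fit without the pair holds too few libraries to measure the spread of each gene. Its p-values rest mostly on the spread shared across features. Without the replicate block, 88 rose and 2545 fell (0.755% and 18.1% of all features). Scaling on the 7599 genes gave 1655 risen and 1989 fallen genes (21.4% and 10.5% of all features), and it moved the median of the genes to 0.07 and of all features to 0.75. By its making this scaling removes the typical change of the genes it is made on, so the near balance follows from it. Under this scaling all 219 risen genes stayed risen and 1989 of the 3296 fallen genes stayed fallen, and none took the opposite call. The balance of rises and falls thus changed with the scaling, and the sign of the change of the 219 risen and 3296 fallen genes did not, in any of the 5 scalings tried. Each scaling other than the main fit moved the median change of the genes upward (to −0.58, −0.67, −0.36 and 0.07). The risen genes could therefore hardly lose their sign, and a called fall could reverse only by a shift larger than itself. The kept signs are thus no independent support for the calls. Called alike in all 4 of these fits (with the block, without it, without the pair numbered 3, and scaled on the genes) were 87 risen and 1985 fallen genes. The share of all features called alike in these fits is not given here.

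Within each pair of libraries, the median log2 change of the genes was −0.48 in pair 1, −0.48 in pair 2 and −1.37 in pair 3. Over all features tested the medians were 0.21, 0.08 and −0.20. Higher on day 37 were 36.2, 34.9 and 11.3% of the genes, beside 58.4, 54.8 and 43.7% of all features. In all 3 pairs 834 genes were higher on day 37 and 4714 lower. A further 1688 were higher in pairs 1 and 2 and lower in pair 3, and 2 showed the reverse. Set against the median of its pair, a gene kept its side in most cases: 3418 lay above the median in all 3 pairs and 3436 below it. As a description across genes, which are not independent replicates, the changes correlated at r = 0.987 between pairs 1 and 2, 0.937 between pairs 1 and 3, and 0.940 between pairs 2 and 3. Changes of at least 1 on the log2 scale in all 3 pairs were seen upward in 72 genes and downward in 2651.

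**Figure D2:**
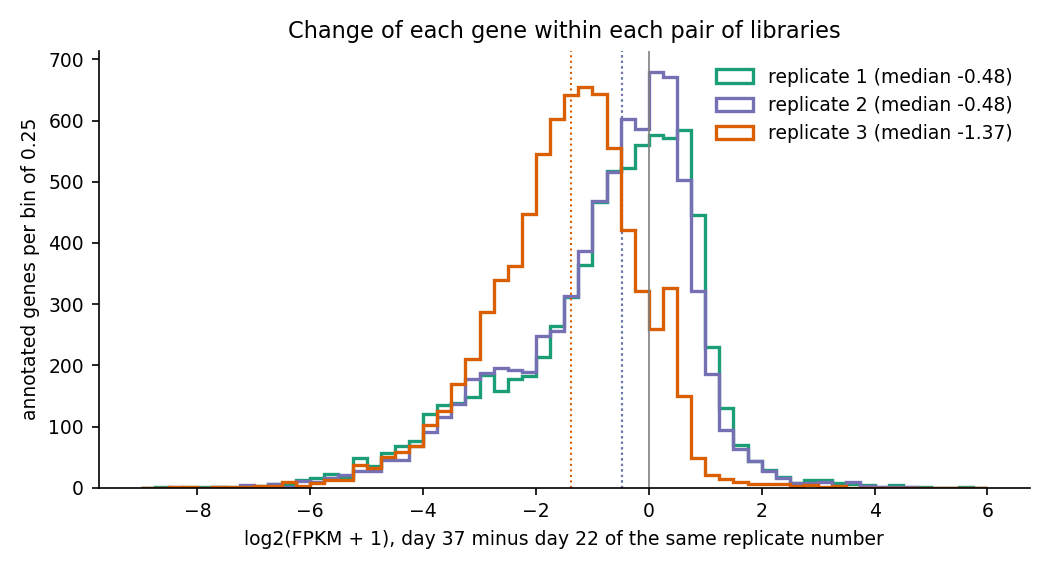
Number of the 7599 genes (y axis, per bin of 0.25) by their log2(FPKM + 1) change, day 37 minus day 22 (x axis), within each pair of libraries with the same replicate number; dotted lines mark the medians. Pairs 1 and 2 share a median of −0.48 and pair 3 lies lower at −1.37, with the same long tail of falls.

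For part of the genes the values of the 2 days did not overlap. For 219 genes (2.88%, beside 8.52% of all features) every day 37 value lay above every day 22 value, and for 3068 (40.4%, beside 25.1%) every day 37 value lay below. Of the 219 genes called risen 104 had days that did not overlap, and of the 3296 called fallen 2924 did. In 214 of the risen genes day 37 replicate 3 was below day 37 replicate 1. Rises had a median log2 change of 1.51 and reached 4.56, with 22 genes at 3 or more. Falls had a median of −2.11 and reached −8.39, with 869 genes at 3 or more in size and 99 at 5 or more. On day 37, 578 fallen genes were under 1 FPKM in all 3 libraries. Risen calls were commoner among abundant genes, at 19.5% of the 164 genes with a mean of at least 100 FPKM and 0.94% of the 3406 genes with a mean of 5 to 10 FPKM. Fallen calls were made in 33.5% and 39.5% of these groups.

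**Figure D3:**
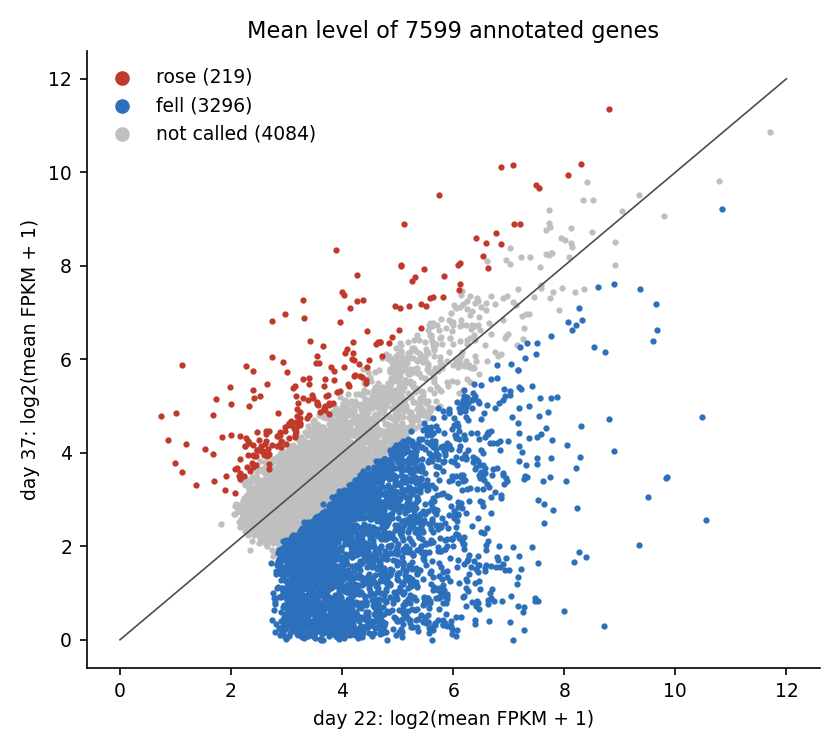
Mean level of each of the 7599 genes on day 37 (y axis) and on day 22 (x axis), as log2(mean FPKM + 1), coloured by the call (219 rose, 3296 fell, 4084 not called); the line marks equal levels. Called falls reach down to 0 on day 37, while called rises lie above the line.

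The 12 named risen genes had day 37 means of 26.5 to 731 FPKM, against 0.663 to 52.8 FPKM on day 22, and 0.0167 to 4.67 FPKM on day 7. LOC110889963 had 84.6, 66.3 and 21.5 FPKM in the day 37 libraries, against 0.75, 1.75 and 1.04 FPKM in the day 22 libraries. Its log2 change was 4.56 ± 0.38 (SE, limma adjusted p = 1.1e-05), the highest of all the genes, and 5.11 without the pair numbered 3. Day 37 replicate 3 was the lowest day 37 library for this gene, and still lay above all day 22 libraries. When expressed as a share of the summed FPKM of the 7599 genes, its day 37 values were 0.0485, 0.0489 and 0.0466%, against 0.000326, 0.000962 and 0.000829% on day 22, so that the 3 day 37 libraries lay close together. Its neighbour but 1 in the gene order, LOC110889962, behaved alike, with 165.7, 130.1 and 41.3 FPKM on day 37, against 6.15, 5.75 and 5.13 FPKM on day 22 (log2 change 3.87 ± 0.40, limma adjusted p = 4.3e-05). The 1 protein-coding gene between them, LOC110888026, stayed between 0.43 and 1.09 FPKM in all 6 libraries.

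LOC110925986 had 504, 382 and 85.8 FPKM on day 37, against 16.0, 15.4 and 9.95 FPKM on day 22 (log2 change 4.14 ± 0.44, limma adjusted p = 5.9e-05). LOC110883894 had 153.4, 137.7 and 83.1 FPKM on day 37, against 6.95, 6.86 and 6.59 FPKM on day 22 (3.96 ± 0.33, limma adjusted p = 1.2e-05). The day 22 libraries of this gene lay close together and its day 37 libraries further apart. LOC110895100 had 34.9, 30.9 and 13.8 FPKM on day 37 and at most 1 FPKM in each day 22 library (3.96 ± 0.32). LOC110889766 had 207.9, 172.2 and 78.7 FPKM on day 37, against 9.21, 9.23 and 8.10 FPKM on day 22 (3.86 ± 0.37). LOC110890334 was the most abundant of the 12, with 1035, 844 and 315 FPKM on day 37, against 55.4, 57.5 and 45.4 FPKM on day 22 (3.61 ± 0.45, limma adjusted p = 0.00016). The days did not overlap for any of these genes.

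In LOC110881169, day 37 replicate 3 was again the lowest day 37 library, but nearer to the other two than in the genes above. It had 528, 468 and 418 FPKM on day 37, against 24.4, 39.5 and 37.4 FPKM on day 22, and 0, 0 and 0.4 FPKM on day 7. Its log2 change was 3.79 ± 0.41 (limma adjusted p = 6.1e-05). As a share of the summed FPKM it stood at 0.303, 0.346 and 0.907% on day 37, against 0.0106, 0.0217 and 0.0298% on day 22, with replicate 3 the highest library on both days.

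The other 4 of the 12 were LOC110938246 (41.7, 32.4 and 9.25 FPKM on day 37, against 1.18, 1.24 and 0.65 FPKM on day 22), LOC110894167, LOC110922119 and LOC110937020, with log2 changes of 3.61, 3.39, 3.37 and 3.25. LOC110938246 was the 1 gene of the 12 with a higher level on day 7 than on day 22, at 4.23, 4.74 and 5.03 FPKM. All 12 kept their risen call in all 20 fits made, whereas 36 of the 219 risen genes did.

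Falls were steeper, with day 37 means of 0 to 10.1 FPKM in the 12 named genes, against 129 to 1495 FPKM on day 22. LOC110930969 had 0.28, 0.30 and 0.12 FPKM in the day 37 libraries, against 502, 420 and 333 FPKM in the day 22 libraries. Its log2 change of −8.39 ± 0.30 (SE, limma adjusted p = 1.2e-06) was the steepest of the genes. On day 7 it had stood at 85.2, 97.6 and 106.0 FPKM, so day 22 was its highest point of the 3 days. LOC110930312 had 6.15, 6.65 and 1.80 FPKM on day 37, against 2002, 1572 and 912 FPKM on day 22, where it was among the 6 most abundant of the genes (−8.05 ± 0.38, limma adjusted p = 1.2e-06). Its share of the summed FPKM was 0.00353, 0.00491 and 0.00391% on day 37, against 0.869, 0.864 and 0.727% on day 22. On day 7 it had 128.2, 133.6 and 123.4 FPKM.

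LOC110927702 and LOC110879816 were low on both day 7 and day 37 and high on day 22. LOC110927702 had 4.82, 3.42 and 1.04 FPKM on day 37, against 968, 628 and 359 FPKM on day 22 (−7.33 ± 0.34, limma adjusted p = 1.2e-06), and 2.62 to 2.76 FPKM on day 7. LOC110879816 had 0.55, 0.84 and 0.20 FPKM on day 37, against 363, 249 and 148 FPKM on day 22 (−7.31 ± 0.31). LOC110913002 followed the same course at 0.36, 0.41 and 0.14 FPKM on day 37, against 170.6, 130.7 and 86.1 FPKM on day 22, with 0.71 to 0.76 FPKM on day 7 (−6.59 ± 0.27). LOC110880246 kept a higher level than these, with 15.7, 11.8 and 2.93 FPKM on day 37, against 1115, 951 and 711 FPKM on day 22 (−6.59 ± 0.43, limma adjusted p = 2.8e-06).

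The gene with ID 110941500 was listed at 0 in all 3 day 37 libraries, against 194.1, 133.5 and 76.3 FPKM on day 22, and had 126.9 to 161.5 FPKM on day 7. No fold is given for it because 1 day is listed at 0. The other named falls were LOC110872272, LOC110922630, LOC110878023, LOC110909144 and LOC110897621, with log2 changes between −7.03 and −6.60. Among them LOC110922630 had 2.87, 3.22 and 1.10 FPKM on day 37, against 345, 364 and 300 FPKM on day 22, the narrowest relative spread on day 22 of the 5. All 12 named falls were called in all 20 fits, as were 1681 of the 3296 fallen genes.

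**Figure D4:**
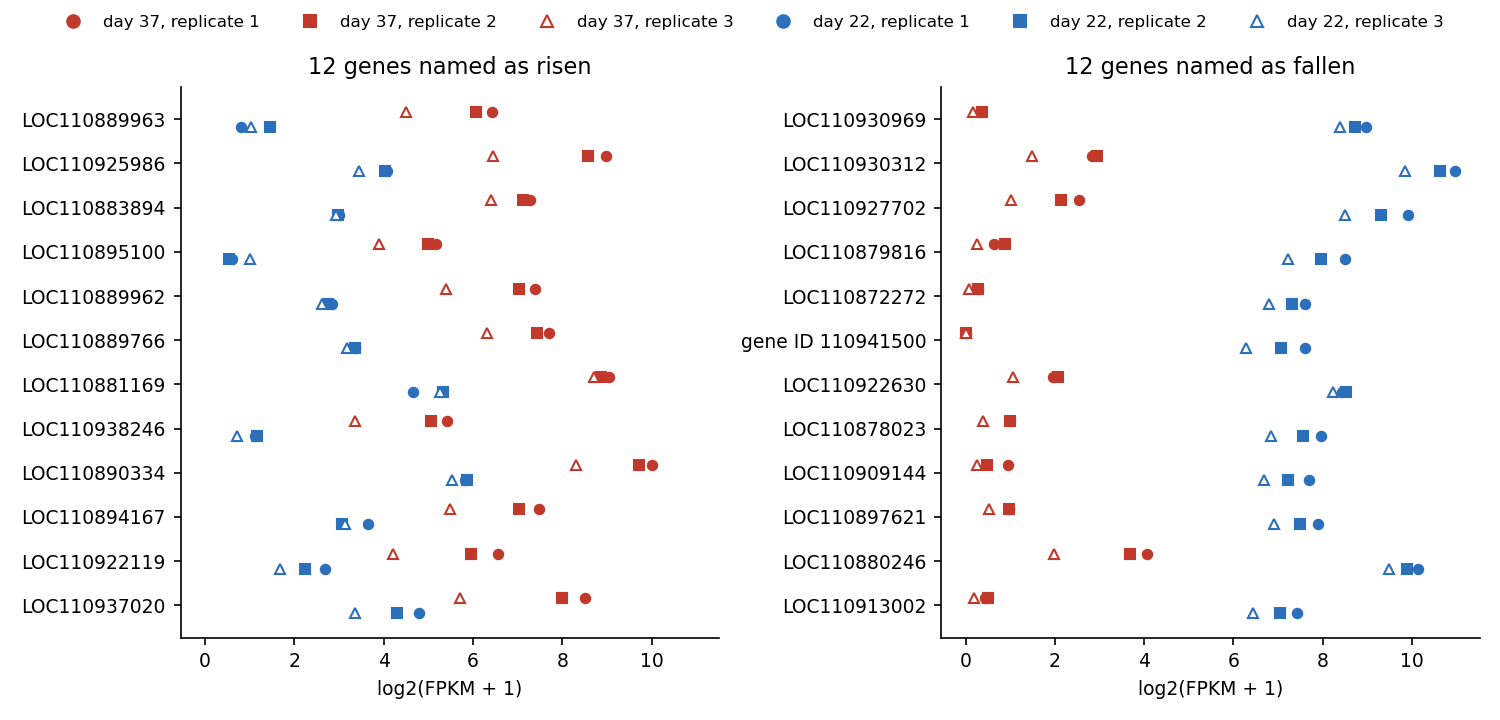
Level of the 12 genes named as risen (left) and the 12 named as fallen (right) as log2(FPKM + 1) on the x axis, with each library as a point (red for day 37, blue for day 22, open triangles for replicate 3). In each gene the 2 days do not overlap; replicate 3 is the lowest day 37 library of all 12 risen genes, least so in LOC110881169 (418 against 468 and 528 FPKM).

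Levels on day 7, which the comparison did not use, differed between risen and fallen genes. A day 7 mean of at least 5 FPKM was found in 43.8% of the risen genes, 88.7% of the fallen genes and 82.5% of the 7599. A day 7 mean under 1 FPKM was found in 38.4%, 4.25% and 11.2% of them. The means of 133 risen genes rose in the order day 7, day 22, day 37, and 86 risen genes had their lowest mean on day 22. Of the fallen genes 2337 had means that declined over the 3 days, and 958 had their highest mean on day 22. These are descriptions with no test, since the day 22 values entered both counts. The 7599 genes also summed to 326296 to 333482 FPKM in the day 7 libraries, above every library of the later days. The orders of the means over the 3 days were not repeated with scaled libraries.

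The most abundant genes of the 2 days were largely different. Of the 10 genes with the highest mean on day 37 only 2 were also among the 10 highest on day 22. Of the 10 highest on day 37, 7 rose and none fell, and of the 10 highest on day 22, 7 fell and none rose. Over the 100 highest of each day 44 were shared. Of the 100 highest on day 37, 38 rose and 5 fell, and of the 100 highest on day 22, 5 rose and 60 fell. Over all 7599 genes 2.88% rose and 43.4% fell, beside 1.3% and 20.9% of all features. Ranks and calls came from the same values, which by itself favours rises among the highest of day 37 and falls among those of day 22. The counts are therefore a description with no test.

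LOC110885558 had the highest mean of all the genes on day 37, with 3150, 2990 and 1745 FPKM on day 37, against 337, 530 and 475 FPKM on day 22. It rose by 2.53 ± 0.53 on the log2 scale (limma adjusted p = 0.004), and took 1.81, 2.21 and 3.79% of the summed FPKM on day 37, against 0.146, 0.291 and 0.379% on day 22. LOC110935334 had 1762, 1366 and 311 FPKM on day 37, against 177.4, 146.4 and 78.5 FPKM on day 22 (2.83 ± 0.48, limma adjusted p = 0.0011). LOC110885604 had 1606, 1301 and 414 FPKM on day 37, against 126.2, 129.0 and 92.1 FPKM on day 22 (3.05 ± 0.48, limma adjusted p = 0.00074). On day 7 these 3 genes were at 1.14 FPKM or less. All 3 calls were lost without pair 1. The call of LOC110935334 was also lost without day 37 replicate 2 or day 22 replicate 1 or 3, and that of LOC110885558 without day 37 replicate 2 or any 1 day 22 library. Here and below, fits without a single library had no replicate block, and those without a pair kept it.

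LOC110895162 and LOC110936731 passed the test with the replicate block and lost the call without it. LOC110895162 had 1781, 1345 and 326 FPKM on day 37, against 459, 307 and 182.4 FPKM on day 22, so that replicate 3 of day 37 lay inside the day 22 range (1.64 ± 0.50, limma adjusted p = 0.025, and 0.19 without the block). LOC110936731 had 1613, 1092 and 241 FPKM on day 37, against 334, 288 and 176.6 FPKM on day 22 (1.54 ± 0.52, limma adjusted p = 0.037, and 0.22 without the block). Without the pair numbered 3 both calls held, with log2 changes of 2.04 and 2.09, in a fit whose p-values rest mostly on the spread shared across features. Both calls were also lost without pair 1, without pair 2 and with no filter. They were lost too without day 37 replicate 1 or 2, without any 1 day 22 library and with all 9 libraries. Those last fits had no block, which by itself took both calls.

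LOC110932526 was the most abundant gene of day 22, with 2783, 2233 and 542 FPKM on day 37, against 4006, 3774 and 2272 FPKM on day 22, and 5110 to 5638 FPKM on day 7. It lies at NC_035433.1:15778374-15780151 on the plus strand in the authors' assembly, as a transcript with 1 exon. Its log2 change of −1.12 ± 0.59 did not pass (limma adjusted p = 0.13), and its days overlapped. It was called fallen under quantile normalization alone of the 20 fits (−1.01, limma adjusted p = 0.0023). LOC110877981 had 1397, 1020 and 296 FPKM on day 37, against 2495, 1685 and 1108 FPKM on day 22, and did not pass either (−1.15 ± 0.53, limma adjusted p = 0.094). It was called fallen with the filter at 5 FPKM (limma adjusted p = 0.045), under trimmed mean scaling (0.0057) and under quantile normalization (0.00026). The gene with ID 110886340 passed with the block at 955, 658 and 171 FPKM on day 37, against 2588, 1857 and 1026 FPKM on day 22 (−1.84 ± 0.52, limma adjusted p = 0.019), but not without it (0.14) or with the libraries scaled on the genes (−0.84). Its call was also lost without pair 1, without pair 2 and with no filter. It was lost too without day 37 replicate 2 or 3, without any 1 day 22 library and with all 9 libraries, in fits with no block. LOC110927644 fell in every fit, with 40.2, 28.6 and 9.39 FPKM on day 37, against 2106, 1306 and 865 FPKM on day 22 (−5.84 ± 0.42, limma adjusted p = 5.0e-06).

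The abundant genes with the smallest changes differed between the pairs. LOC110936707 had 675, 483 and 113.3 FPKM on day 37, against 493, 381 and 204 FPKM on day 22, so that it was higher on day 37 in pairs 1 and 2 and lower in pair 3 (−0.02 ± 0.48, limma adjusted p = 0.98). LOC110907947, LOC110870175 and LOC110894114 had the same pattern, with log2 changes of −0.02, −0.08 and −0.13 over all pairs and 0.46, 0.42 and 0.31 without the pair numbered 3. LOC110890252 had 143.5, 124.2 and 59.5 FPKM on day 37, against 106.0, 106.1 and 84.2 FPKM on day 22 (0.05 ± 0.40). With the libraries scaled on the genes these 5 changes were between 0.87 and 1.04, and LOC110890252 was called risen.

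A set of 432 genes went against the general pattern of replicate 3, being highest in replicate 3 on both days. They were 71.2% of the genes highest in replicate 3 on day 37 and 84.7% of those on day 22. Their median level was 6.82, 7.50 and 10.1 FPKM in the day 37 libraries, against 3.98, 5.54 and 7.54 FPKM in the day 22 libraries, and 0.02 to 0.03 FPKM in the day 7 libraries. On day 7, 410 of the 432 had a mean under 1 FPKM. Of the 432, 4 rose (0.926%, beside 1.3% of all features) and 1 fell (0.231%, beside 20.9%), and their median log2 change was 0.47. With the libraries scaled on the 7599 genes, 408 rose (94.4%, beside 21.4% of all features) and 1 fell, with a median of 1.35. That scaling divided day 37 replicate 3 by 0.294 and the other libraries by 0.999 to 1.87. Genes chosen for being highest in replicate 3 are thereby raised on day 37, so this count largely follows from the choice of the set. The gene table had no match for 144 of the 432, beside 273 of the 7599. The gene with ID 110906075 had the highest mean of the set, with 183.7, 262.4 and 306.8 FPKM on day 37, against 107.0, 219.8 and 239.1 FPKM on day 22. LOC110894380 had 120.7, 130.3 and 188.6 FPKM on day 37, against 75.4, 81.6 and 128.0 FPKM on day 22. Neither passed unscaled (log2 changes of 0.46 and 0.63, limma adjusted p = 0.35 and 0.17), and both rose with that scaling (1.46 and 1.62, limma adjusted p = 0.021 and 0.014). Both genes were chosen after their values were seen, and within each day the share of assembled loci in the libraries moved in the same order as these values.

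Genes called in 1 direction also occurred side by side in the gene order of the reference table. Among 7297 of the genes placed on it there were 1234 adjacent pairs, of which 10 had both genes risen, 250 both fallen and 25 one of each. The first gene had risen in 45 of the 1234 pairs and fallen in 540. Over all 7599 genes 2.88% rose and 43.4% fell, beside 1.3% and 20.9% of all features. With so large a share fallen, many fallen genes, and runs of them, lie side by side in any order. Of the 82 risen genes with a neighbour among the genes, 23.2% had a risen neighbour, beside 2.46% of 974 fallen genes and 3.91% of 1202 uncalled genes. A fallen neighbour was found for 49.4% of the fallen genes, 30.5% of the risen and 42.0% of the uncalled. These are descriptions with no test, and neighbours may be copies that share reads.

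The longest run of risen genes held 3, LOC110885662, LOC110885604 and LOC110885663. LOC110885662 had 196.9, 156.7 and 68.9 FPKM on day 37, against 31.5, 32.3 and 25.8 FPKM on day 22 (log2 change 2.08 ± 0.39), and LOC110885663 had 31.4, 16.5 and 6.47 FPKM on day 37, against 5.71, 4.35 and 1.84 FPKM on day 22 (1.79 ± 0.25). The middle gene of the run was the abundant LOC110885604. All 3 were at 0.21 FPKM or less on day 7. LOC110925986, named above, was next to LOC110925904, which had 182.3, 122.4 and 24.1 FPKM on day 37, against 20.9, 14.3 and 8.71 FPKM on day 22 (2.48 ± 0.41). Another risen pair, LOC110868421 and LOC110868429, had log2 changes of 3.09 and 3.24.

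Of the runs of fallen genes the longest held 5, from LOC110942229 through LOC110942230, LOC110916521 and LOC110916536 to LOC110919154. LOC110942230 had 24.3, 16.3 and 5.47 FPKM on day 37, against 668, 434 and 325 FPKM on day 22 (−5.01 ± 0.39, limma adjusted p = 8.0e-06). LOC110916521 had 15.0, 12.9 and 2.60 FPKM on day 37, against 309, 207.3 and 124.9 FPKM on day 22 (−4.44 ± 0.37), after at most 2.82 FPKM on day 7. The other 3 had log2 changes of −3.10, −4.80 and −2.51. A run of 4, LOC110889986, LOC110889988, LOC110889989 and LOC110889990, had changes between −5.09 and −3.10. LOC110889988 had 0.20, 0.61 and 0.12 FPKM on day 37, against 63.6, 46.1 and 27.3 FPKM on day 22. The genes of these runs were called alike without the block, without the pair numbered 3 and with the libraries scaled on the genes.

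Of the 206 annotated lncRNA-table genes more fell than rose, except with the libraries scaled on these genes. At day 37, 8 rose and 91 fell (3.88% and 44.2%, beside 0.573% and 1.98% of 33307 features tested), with a median log2 change of −0.91, beside 0.28 for all features. The gene table lists 177 of the 206 as lncRNA and 9 as protein-coding, and 20 were not matched. The rule on membership had let in 54 genes with no day 37 library at 5 FPKM and 1 with no day 22 library at 5 FPKM. Without the pair numbered 3, 11 rose and 75 fell (0.907% and 1.84% of all features). Without the replicate block 7 rose and 84 fell (0.555% and 1.92%). The scaling on these genes gave 50 risen and 37 fallen (41.2% and 0.697% of all features), with none of the 99 calls reversed. By its making it removes the typical change of these genes (median −0.005), so the loss of the excess of falls follows from it. Of the 8 risen genes 3 were called under all 5 scalings, and of the 91 fallen genes 37 were.

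LOC110892031 was the lncRNA-table gene with the largest rise among those whose days did not overlap, with 14.5, 10.97 and 16.5 FPKM on day 37, against 5.24, 2.30 and 4.38 FPKM on day 22 (1.62 ± 0.15, limma adjusted p = 0.00013). Day 37 replicate 3 was its highest library. LOC110911417 had 57.7, 41.7 and 12.7 FPKM on day 37, against 12.5, 10.8 and 7.20 FPKM on day 22 (1.57 ± 0.24, limma adjusted p = 0.0067). LOC110928155 had 40.2, 42.0 and 14.7 FPKM on day 37, against 11.7, 14.1 and 11.5 FPKM on day 22 (1.18 ± 0.25, limma adjusted p = 0.022). This gene lies at NC_035435.1:138306304-138313907 on the minus strand in the authors' assembly, with 4 exons, and its call was lost under median-of-ratios, trimmed mean and quantile scaling, and when pair 1, pair 2, day 37 replicate 1 or 2 or day 22 replicate 2 was left out. LOC110911417 lost its call without pair 1 or day 37 replicate 1 or 2, and LOC110892031 without day 22 replicate 2. Over all 206 genes, every day 37 value lay above every day 22 value for 6 (2.91%, beside 12.8% of all features) and below for 89 (43.2%, beside 3.68%).

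Among the falls, LOC110878354 had 4.65, 2.44 and 0.24 FPKM on day 37, against 188.0, 93.6 and 62.6 FPKM on day 22 (−5.18 ± 0.17, limma adjusted p = 5.4e-07), and 131.1 to 176.7 FPKM on day 7. LOC110875133 had 0.23, 0.12 and 0 FPKM on day 37, against 34.0, 18.4 and 23.1 FPKM on day 22 (−4.51 ± 0.16). LOC110864125 was at 2.61, 2.00 and 1.82 FPKM on day 37, against 80.2, 46.7 and 48.4 FPKM on day 22 (−4.20 ± 0.14), with at most 0.05 FPKM on day 7. LOC110889402 had 4.17, 2.75 and 1.22 FPKM on day 37, against 82.0, 64.4 and 44.5 FPKM on day 22 (−4.16 ± 0.13). In each of these 4 the days were far apart, and the calls held in all 20 fits.

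LOC110867528 had the highest mean of the lncRNA-table genes and lies at NC_035433.1:63827771-63881972 on the plus strand in the authors' assembly, with 3 exons. It had 62.4, 43.4 and 11 FPKM on day 37, against 755, 488 and 420 FPKM on day 22 (−4.06 ± 0.31, limma adjusted p = 0.00025), and 934 to 971 FPKM on day 7. Its call was lost without pair 1. LOC110941468, at NC_035437.1:172355015-172357520 on the plus strand with 3 exons, had 39.9, 34.2 and 11.8 FPKM on day 37, against 200.6, 159.0 and 119.7 FPKM on day 22 (−2.57 ± 0.20, limma adjusted p = 0.00011). LOC110872050, at NC_035433.1:91505952-91506785 on the plus strand with 2 exons, had 34.6, 31.7 and 14.7 FPKM on day 37, against 87.5, 80.1 and 129.2 FPKM on day 22 (−1.89 ± 0.34, limma adjusted p = 0.020). Its value of 129.2 FPKM was the highest of the day 22 libraries and came from replicate 3. With the libraries scaled on the genes its change was −0.86 and no longer passed (limma adjusted p = 0.051), nor did it without pair 1, with a pseudocount of 0.1 or with the filter at 5 FPKM.

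Fewer circRNAs were seen in replicate 3 on both days. A value above 0 was found for 697, 526 and 205 circRNAs in the day 37 libraries, against 585, 396 and 319 in the day 22 libraries, or 476 ± 250 and 433 ± 137 (SD, n = 3 each). The difference of 42.7 did not pass an exact two-sided permutation test (p = 0.90, where 3 against 3 libraries can give no less than 0.1). Pairs 1 and 2 held 112 and 130 more circRNAs on day 37, and pair 3 held 114 fewer. Without pair 3 the mean difference was 121. Counting values of at least 21, the lower quartile, gave 697, 300 and 101 circRNAs on day 37, against 585, 212 and 162 on day 22, with a difference of 46.3 (exact permutation p = 0.70). On both days the lowest value above 0 was 21 in replicate 1, 20 in replicate 2 and 19 in replicate 3. That minimum therefore took circRNAs from replicates 2 and 3 alone, and the wider gap between replicates follows from it. Of the 1709 circRNAs above 0 in any of the 6 libraries, 1201 were above 0 in 1 library alone and 33 in all 6. The headers name no unit for these values, and the lowest value above 0 of each library was close to 2 steps of that library's spacing.

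Of the 271 circRNAs tested, 21 rose (7.75%) and 40 fell (14.8%) with the replicate number as a block, on the log2(value + 19) scale. Without the block 1 rose (0.369%) and 15 fell (5.54%). Without the pair numbered 3, 9 rose (3.32%) and 16 fell (5.90%). The fits without pair 1 and without pair 2 called none, with 15 circRNAs up and 34 down, and 10 up and 43 down, at an unadjusted limma p under 0.05. Called alike with the block, without it and without pair 3 were 1 risen and 13 fallen circRNAs. Of the 40 fallen circRNAs 27 were listed at 0 in all day 37 libraries, and 36 of the 40 had a day 7 value above 0. Of the 21 risen circRNAs 4 were listed at 0 in all day 22 libraries, and 13 of the 21 had a day 7 value above 0. Values above 0 in all libraries of 1 day and none of the other were found for 6 circRNAs on day 37 and 35 on day 22. They stand beside 74 circRNAs above 0 in all day 37 libraries and 100 in all day 22 libraries.

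The circRNA that rose most lies at NC_035443.1:149031313-149033088 and had values of 356, 202 and 47 on day 37, and was listed at 0 in the day 22 and day 7 libraries (limma adjusted p = 1.6e-05, and 0.038 without the block). It was the 1 risen circRNA called alike in those 3 fits. At NC_035438.1:95204608-95204940 the values were 450, 283 and 38 on day 37, against 0, 20 and 0 on day 22, and at NC_035441.1:175873817-175874185 they were 178, 222 and 76 on day 37, against 0, 20 and 0 on day 22. At NC_035449.1:27445320-27453984 they were 774, 464 and 38 on day 37, against 62, 40 and 0 on day 22. The calls of these 3 were lost without the block (limma adjusted p = 0.056, 0.051 and 0.14). All 4 rises lost their calls without pair 1 or pair 2, and those of these 3 also with a pseudocount of 1. All 4 calls were lost too in the fits without day 37 replicate 1 or 2 or any 1 day 22 library. Those fits had no block, which by itself took the calls of these 3.

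The 4 named falls were listed at 0 in every day 37 library. The circRNA at NC_035443.1:139000695-139021809 had 811, 548 and 374 on day 22 and 2627 to 2888 on day 7 (limma adjusted p = 1.3e-08, and 0.0062 without the block). At NC_035435.1:137950409-137956288 the day 22 values were 510, 369 and 221 and the day 7 values 3843 to 4496. Those at NC_035439.1:97131927-97135718 (531, 319 and 154 on day 22) and NC_035443.1:25748174-25764627 (333, 279 and 154 on day 22) had day 7 values of 304 to 607. The fall of each kept its call without the block and without pair 3, and lost it without pair 1, pair 2 or day 22 replicate 2.

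The highest circRNA was far above the rest on day 37. At NC_035444.1:76408941-76438063 the values were 44704, 41617 and 10785 on day 37, against 11588, 0 and 0 on day 22, and it was listed at 0 on day 7. It made up 45.5, 53.3 and 54.5% of the summed values of the day 37 libraries. On day 22 only replicate 1 had a value, and the difference did not pass with all 6 libraries (limma adjusted p = 0.18, and 0.14 without the block). It passed without day 22 replicate 1, in a fit with no block (limma adjusted p = 0.0049), and when circRNAs had to be above 0 in at least 4 libraries (0.033). The circRNA at NC_035435.1:129518962-129556158 had 146, 242 and 38 on day 37, against 1976, 1575 and 989 on day 22, and was listed at 0 on day 7 (−3.45 ± 0.64, limma adjusted p = 1.1e-05). Its call was lost without pair 1, pair 2 or any 1 day 22 library. The one at NC_035433.1:5943489-6000329 had 2824, 1241 and 511 on day 37, against 5055, 2870 and 3264 on day 22, and did not pass unscaled with all pairs (−1.55 ± 0.71, limma adjusted p = 0.10). It was called fallen without pair 3 (−1.02, limma adjusted p = 0.028) and under median-of-ratios (−1.70), trimmed mean (−1.49) and quantile scaling (−2.07).

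**Figure D5:**
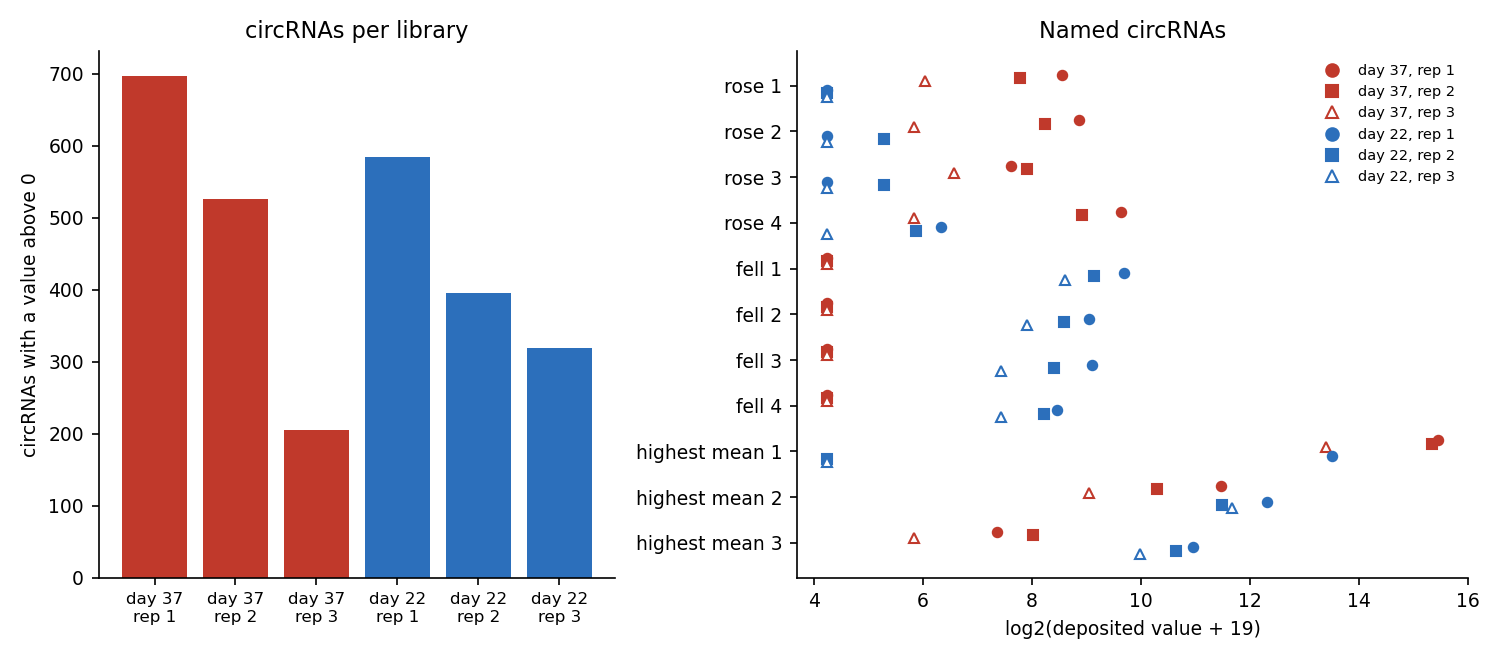
Left, circRNAs with a value above 0 (y axis) in each day 37 library (red) and day 22 library (blue). Right, log2(value + 19) of the 11 named circRNAs in each library (x axis), in the order of the text for those that rose and fell and by mean for the last 3; the 4 that fell lie at the level of 0 on day 37, and the highest circRNA lies at 0 in 2 of the 3 day 22 libraries.

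For 21 tested circRNAs both ends lay at exon ends of 1 annotated gene (starts within 1 base), among 89 on the 5 sequences that hold most exons of the deposited assembly. At LOC110930260 the circRNA at NC_035435.1:137948167-137954574 fell (0, 30 and 28 on day 37, against 333, 279 and 163 on day 22), and so did the gene's mRNA level (0.33, 0.33 and 0.13 FPKM on day 37, against 2.06, 1.84 and 1.17 FPKM on day 22, limma adjusted p = 0.00011). At LOC110864945 the 2 readouts parted: the mRNA level was 3.66, 1.58 and 0.11 FPKM on day 37, against 64.8, 48.7 and 28.9 FPKM on day 22 (−4.28 ± 0.27, limma adjusted p = 2.4e-06), whereas the circRNA at NC_035433.1:44424229-44424658 had 21, 20 and 0 on day 37, against 21, 0 and 19 on day 22, which is near the lowest value above 0. At LOC110927248 the mRNA level fell (4.48, 6.02 and 1.43 FPKM on day 37, against 27.7, 17.7 and 13.1 FPKM on day 22), and the circRNA at NC_035434.1:175388749-175389085 had 523, 222 and 0 on day 37, against 270, 140 and 106 on day 22 (limma adjusted p = 0.72). These 3 genes were picked after their values were seen, and the difference between a circRNA's change and its gene's was not tested.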

How the data were processed

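FPKM per gene for mRNA and for lncRNA was deposited in 2 tables, per the file headers. The authors also deposited a signal per circRNA, whose unit the headers do not name. The submitters' processing notes name DESeq2 1.4.5, RSEM 1.2.12, Bowtie2 2.2.5 and HISAT2 2.0.4, without their roles. Positions are as in the files, whose genome build is not given in the sources used. Both FPKM tables hold 65535 features and may be parts of longer ones. Symbols and gene order come from assembly HanXRQr2.0-SUNRISE, which matched 7326 of the 7599 mRNA-table genes.

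Each table was fitted with limma 3.58.1 in R 4.3.3 (trended, robust) on log2(FPKM + 1) of the 6 libraries, with replicate number as a block, after features under 1 FPKM in over 3 of them were left out. CircRNAs above 0 in at least 3 libraries were fitted as log2(signal + 19). The fit of all 9 libraries and the fits without a single library had no replicate block, while fits without a pair kept it. With a pair left out and the block kept, p-values rest mostly on the spread shared across features and little on that of each feature. Calls needed a Benjamini-Hochberg adjusted p under 0.05 over the whole table and a log2 change of at least 1. The fits were also run on simulated data with known changes, independent noise and no general shift between the days. That run does not bear on such a shift, and its outcome is not given here. The lists of seed genes and the sequence features planned could not be used, since the sources pair no ID with a product or sequence. Counts, exact tests and plots were made in Python 3.11.15 (matplotlib 3.10.9, scipy 1.17.1, pandas 2.3.3, numpy 2.4.6).

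The labels give equal replicate numbers on both days without saying that they mark a shared plant or batch. Over all features tested, deviations from the day means of same-numbered libraries correlated at 0.80, 0.15 and 0.81 for mRNA, at 0.51, 0.09 and 0.54 for lncRNA and at 0.15, 0.07 and 0.25 for circRNA, and were over 0.1 in every pair for mRNA alone. Over the genes reported they were 0.66, 0.24 and 0.67 for mRNA and 0.71, 0.25 and 0.75 for lncRNA, over 0.1 in every pair of both. Named mRNA genes were the 12 risen and 12 fallen with the largest change among those called, alike in all pairs and not overlapping between days, the 6 with the highest mean on each day, and the 5 with a mean of at least 100 FPKM and the smallest change. For lncRNA the rule took 5 each way (3 rises met it) and the 3 highest means, and for circRNA 4 each way and the 3 highest means. The genes compared, the lists and the rules were chosen with earlier results of these data known.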

Additional observations from a re-analysis of the deposited data

How the results depend on the processing

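No called gene or circRNA among those named reversed its direction in any setting run. The 5 abundant genes with the smallest changes, none of them called, took the other sign in 5 to 8 settings each. Calls of rises depended on the setting in all 3 tables. Without the replicate block, 88 of the annotated mRNA-table genes and 241 of all features rose, and 1 circRNA rose and 15 fell; for lncRNA it moved no count of calls by over 1.5 times. The fit of all 9 libraries, also without the block, gave 128 risen genes (307 of all features, 0.843%), 4 risen lncRNA-table genes (176, 0.515%) and 5 risen circRNAs. Fits that left out a single library had no block either, so their counts differ from the main fit in both respects. Fits without a pair kept the block. Leaving out libraries or pairs gave 40 to 731 risen and 1744 to 3280 fallen genes (91 to 1261 and 3956 to 7140 of all features), 1 to 11 and 52 to 103 for the lncRNA-table genes (103 to 371 risen of all features) and 0 to 19 and 0 to 18 circRNAs. The highest count of risen genes came without day 37 replicate 3, and the lowest count of fallen genes without day 22 replicate 1 (1744), with 2047 without day 22 replicate 2. No circRNA was called in the fits without pair 1 or without pair 2, and without day 22 replicate 2 none was either (11 up and 44 down at an unadjusted limma p under 0.05). Leaving out day 37 replicate 1, day 37 replicate 2 or day 22 replicate 1, with no block, still gave 11, 7 and 10 fallen circRNAs. Median-of-ratios scaling gave 377 risen genes (722 of all features), 3 lncRNA-table genes (68). Trimmed mean scaling gave 3 lncRNA-table genes (71), and quantile normalization 718 genes (1855) and 4 lncRNA-table genes (95). Risen genes were 6.23% of calls unscaled and 11.5%, 9.14% and 21.9% under these 3, and 45.4% with the libraries scaled on the genes. That last scaling by its making removes the typical change of the genes. It gave 1655 risen and 1989 fallen genes (6841 and 3337 of all features) and 50 and 37 lncRNA-table genes (13714 and 232). A pseudocount of 0.1 gave 808 risen features in the mRNA table and 812 in the lncRNA table, and a pseudocount of 1 gave 3 risen and 26 fallen circRNAs. A filter at 5 FPKM tested fewer features, with 253 risen and 3493 fallen in the mRNA table and 92 and 250 in the lncRNA table. Fitting annotated features alone gave 29 and 272 in the lncRNA table. Requiring a circRNA in at least 2 libraries gave 2 risen and 16 fallen, and in at least 4 gave 10 and 9. At a size of at least 1 on the log2 scale, 72 and 2651 genes changed upward and downward in all 3 pairs where 834 and 4714 did at any size, and 1 and 67 of the lncRNA-table genes where 37 and 131 did. With the lower quartile as the minimum, circRNAs per library numbered 697, 300 and 101 on day 37 and 585, 212 and 162 on day 22, against 697, 526 and 205 and 585, 396 and 319 above 0. That minimum was the lowest value above 0 of replicate 1, so it removed none there. Other counts of calls stayed within 1.5 times. The cause of these differences was not tested, other than the smaller sets fitted. Depth is unknown, so the precision of low FPKM values can be read from the spread of 3 libraries alone.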
